A study of Rattus norvegicus with 8 samples.

Results

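The semaphorin, plexin, netrin and Slit genes were described in laser-captured motoneurons of the rat lumbar spinal cord. Members were chosen by symbol alone: each probe set annotated to a semaphorin, a plexin of class A to D, a neuropilin, a netrin or netrin-G, Dcc, an Unc5 receptor, a Slit or a Robo. That gave 70 probe sets of 40 genes among 31042 probe sets in the table. Unc50, whose name begins alike but which is no netrin receptor, and Unc5cl were left out. Wistar albino rats at postnatal day 21 (P21), after myelination, were compared with rats of the same strain at postnatal day 1 (P1), while it was under way. The labels give no treatment, and each age had 4 arrays, each a pool of captured cells from 4 rats, with animals of 4 litters divided between the ages. A pool held 1500 to 2000 cells cut from sections stained with cresyl violet.

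Guidance cues of these families steer growing axons. Class 3 semaphorins are secreted and bind neuropilins, which signal through A-type plexins, whereas semaphorins of classes 4 to 6 sit in the membrane and mostly bind plexins directly. Netrin-1 attracts axons through Dcc and repels them through Unc5 receptors, and Slits repel them through Robo receptors. In the embryonic cord these systems set where motor axons leave and how they sort in the limb, and after birth several of them act on synapses, glia and vessels.

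Promoter windows of 3 genes are printed because their changes are described below and their windows end at the outermost annotated start of the gene. Nrp1 and Sema4f were lower and Unc5b was higher at P21. Each is the 250 bases before the start in RefSeq, build GRCr8, 5′ to 3′ on the gene's strand, with matches to the searched letters in capitals.
Nrp1, chr19:73256307-73256556 (+ strand): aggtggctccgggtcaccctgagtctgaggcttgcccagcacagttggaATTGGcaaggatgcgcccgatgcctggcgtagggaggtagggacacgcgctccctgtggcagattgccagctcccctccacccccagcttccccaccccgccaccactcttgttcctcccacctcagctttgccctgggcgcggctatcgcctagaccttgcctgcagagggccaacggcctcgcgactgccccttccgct
Sema4f, chr4:116995443-116995692 (- strand): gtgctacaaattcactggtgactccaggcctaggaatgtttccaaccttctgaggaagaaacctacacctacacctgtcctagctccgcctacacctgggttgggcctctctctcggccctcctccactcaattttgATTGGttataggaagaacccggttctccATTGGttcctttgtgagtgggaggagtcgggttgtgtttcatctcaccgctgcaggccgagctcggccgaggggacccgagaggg
Unc5b, chr20:29307271-29307520 (- strand): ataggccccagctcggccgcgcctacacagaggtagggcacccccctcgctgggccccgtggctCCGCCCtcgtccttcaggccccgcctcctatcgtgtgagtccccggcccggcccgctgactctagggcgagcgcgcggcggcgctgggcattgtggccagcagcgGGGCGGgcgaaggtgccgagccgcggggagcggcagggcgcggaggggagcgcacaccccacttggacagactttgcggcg

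RefSeq windows were found for 28 of the 40 genes, 29 windows in all, of which 9 end at the outermost start of their gene. The letters GGGCGG, the core of a GC box, or their reverse complement occurred in 17 of 29 guidance windows (58.6%), against 30.5% of all windows. CCAAT occurred in 9 of 29 guidance windows (31.0%), against 34.0% of all windows. TGACG, part of the cyclic AMP element, occurred in 3 of 29 guidance windows (10.3%), against 18.2% of all windows. CAGCTG, an E-box, occurred in 8 of 29 guidance windows (27.6%), against 12.0% of all windows. TATAAA occurred in 0 of 29 guidance windows (0%), against 12.9% of all windows. Both strands were searched, GGGCGG matches may overlap one another, and the letters were chosen with the sequences in view. The Unc5b window held GGGCGG at 2 positions and no CCAAT, and the Nrp1 and Sema4f windows held CCAAT but no GGGCGG. The printed windows were picked by hand. Among other genes with only falls, Robo2, Sema3e and Sema4a held GGGCGG and no CCAAT, and Nrp2 and Sema3c held neither. Plxnb1 and Plxnd1, with only rises, held GGGCGG and no CCAAT, so GGGCGG occurred with either direction of change. These matches describe the windows only.

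An intensity here is the linear value the authors deposited, and a change is log2(P21 + 16) minus log2(P1 + 16), given ± its standard error. Tests were limited to probe sets that on at least 4 of the 8 arrays were brighter than a filter level, the 40th percentile (263 to 287 on P21 arrays and 221 to 282 on P1 arrays). Errors of mean intensities are SDs, n = 4 arrays for each age. A call is a Benjamini-Hochberg adjusted p under 0.05 over all 19155 tested probe sets in limma's test, and every adjusted p of a single probe set comes from that test. The motoneuron markers Chat, Slc5a7, Slc18a3, Nefh and Prph exceeded the filter level on all 8 arrays, Chat being called higher at P21, while Isl1 was called lower and exceeded it at P21 on 1 array, and Mnx1 had no tested probe set. Markers of other cells moved between the ages. All 7 tested oligodendrocyte markers were higher at P21 (summed intensity 31957 to 34625 at P21, against 6035 to 7605 at P1). Of 7 astrocyte markers, 5 were higher and 1, Slc1a3, was lower, and of 6 vessel markers 4 were higher. Of 5 microglial markers, 3 were higher, and of 4 oligodendrocyte precursor markers 2 were higher and 1 lower. Of 5 interneuron markers, 4 were lower and 1, Slc32a1, was higher. In such pools fewer cells of a type and less RNA per cell cannot be told apart.

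Of the 70 guidance probe sets, 45 from 30 genes passed the filter. At P21, 13 of these 45 were lower (28.9%) and 7 higher (15.6%), and 25 were not called. Among all tested probe sets, 17.4% were called lower and 20.8% higher, or 38.3% in either direction. The guidance probe sets that passed had a median change of -0.24, against 0.07 for all tested. The ages did not overlap in 19 of the 45 (42.2%), against 38.0% of all tested. By gene, 9 had only falls among their calls, 5 only rises and 2 had calls in both directions, while 14 had no call and 10 had no tested probe set. Centring each array on its median moved the median of all tested probe sets to -0.07, and the guidance calls became 21 lower and 2 higher, against 21.8% and 13.7% of all tested. Quantile normalization gave 18 lower and 4 higher, against 21.2% and 19.5%. The 13 falls were called under all of these scalings, whereas 5 of the 7 rises were lost on centring.

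**Figure D1:**
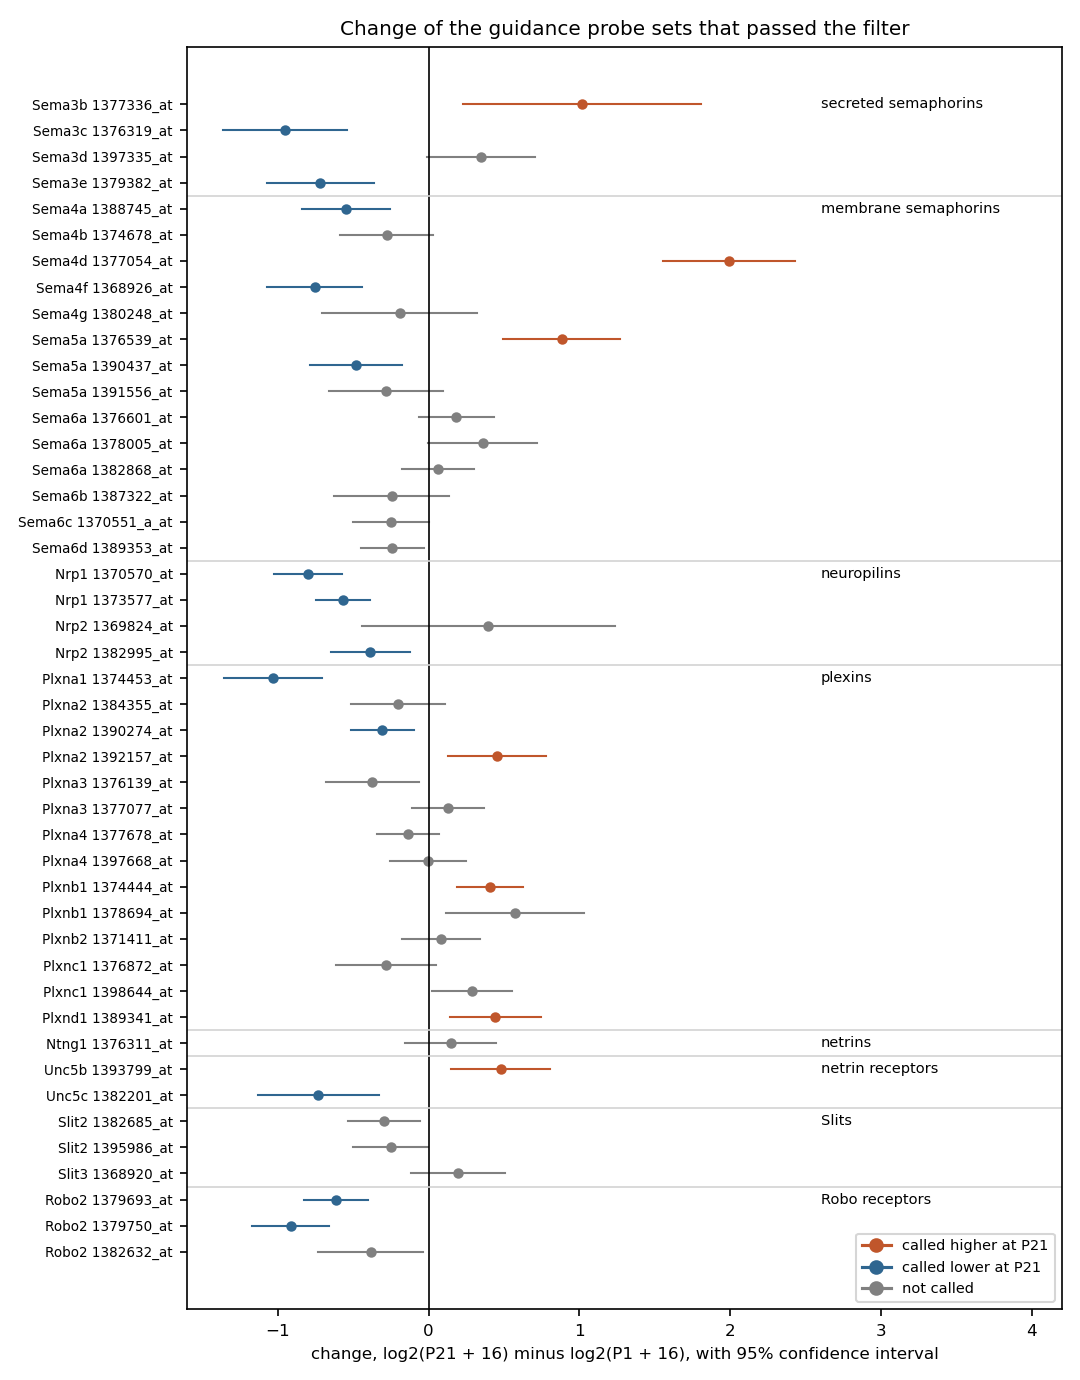
Change of each of the 45 guidance probe sets that passed the filter, on the horizontal axis as log2(P21 + 16) minus log2(P1 + 16), by role; points are estimates and lines 95% confidence intervals from limma. The 13 called falls (blue) lie between -1.03 and -0.31 and the 7 called rises (orange) between 0.41 and 1.99, the last a fitted value for Sema4d, whose P1 intensities lay under the filter level.

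**Figure D2:**
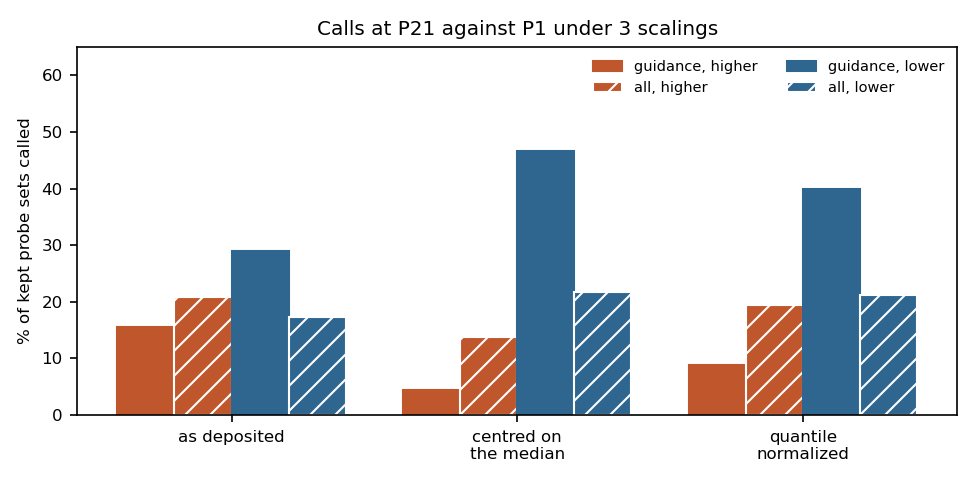
Percentage of tested probe sets called higher (orange) or lower (blue) at P21 under 3 scalings of the arrays, for the guidance probe sets (plain bars, of 45) and all tested probe sets (hatched bars, of 19155). The guidance share called lower is 28.9% as deposited, 46.7% after centring and 40% after quantile normalization, and the share called higher is 15.6%, 4.44% and 8.89%.

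The calls among the secreted semaphorins went in both directions, although the only rise, of Sema3b, was lost under several alternatives. Sema3c, a class 3 semaphorin that can attract or repel axons, read 2576, 1478, 2656 and 2514 on the P21 arrays, against 4027, 4062, 4570.1 and 4847 on the P1 arrays. The ages did not overlap, and P21 replicate 2 was the lowest of its age. Its change was -0.95 ± 0.18 (adjusted p = 0.00277), from means of 2306 ± 555 at P21 and 4377 ± 399.7 at P1. Sema3e, which in mouse acts on Plxnd1 without a neuropilin, read 586, 607, 483 and 437 on the P21 arrays, against 907, 1118, 722 and 787 on the P1 arrays. It too was lower on every P21 array, with a change of -0.72 ± 0.16 (adjusted p = 0.00566).

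Sema3b, another secreted member, was called in the opposite direction, with 837, 379, 665 and 301 on the P21 arrays, against 291, 134, 344 and 245 on the P1 arrays. Its ages overlapped, since P21 replicate 4 lay under P1 replicate 3. The change was 1.02 ± 0.35 with an adjusted p of 0.0449, or 0.00816 with the replicate number as a block. That call was lost on centring (adjusted p = 0.0723), with quantile normalization, without the filter, and without P21 replicate 1, 2 or 3 or P1 replicate 1, 2 or 4. Of the Schwann cell markers, Prx read 2732, 1272, 1966 and 1332 at P21, against 1184, 490.5, 843 and 439 at P1. Pmp2 was also called higher, while Ngfr was called lower, with 244, 224, 422 and 157 at P21, against 3728, 3088, 3925 and 4181 at P1. The 3 summed to 2085 to 5056 at P21, against 3801 to 5188 at P1, and their part in the Sema3b result was not tested. Sema3d did not pass the test (change 0.34, 95% interval -0.01 to 0.70), and Sema3a, Sema3f and Sema3g had no tested probe set.

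Among the membrane semaphorins, Sema4d had the largest change of any tested guidance probe set. Sema4d, a ligand of Plxnb1 that oligodendrocytes are known to make in mouse, read 948, 625, 1016 and 1211 on the P21 arrays, against 194, 275, 197 and 226 on the P1 arrays. Every P1 intensity lay under the filter level of its array, and every P21 intensity lay above it. The rise was therefore at least 3.51-fold (fitted change 1.99 ± 0.20, adjusted p = 4.98e-05). The oligodendrocyte markers whose sums are given above rose on the same arrays, among them Mbp, a protein of central and peripheral myelin, which read 8294, 8379, 9103 and 7382 at P21, against 2374, 1843, 2570.5 and 1219 at P1. The part of those cells in the Sema4d result was not tested.

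Other class 4 members fell. Sema4f, which in rat brain binds the synaptic scaffold PSD-95, read 2433, 2367, 3067 and 2047 on the P21 arrays, against 4262, 3474, 4456 and 4498 on the P1 arrays. All P21 arrays lay under all P1 arrays (change -0.76 ± 0.14, adjusted p = 0.00221). Sema4a, best known as a semaphorin of immune cells and retina, averaged 762 ± 129.7 at P21 and 1109 ± 57.9 at P1 and fell by 0.55 ± 0.13 (adjusted p = 0.00866). Sema4b (change -0.28) and Sema4g (-0.19) did not pass, although the adjusted p of Sema4b was 0.0304 with the replicate block.

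The class 6 semaphorins, membrane ligands of A-type plexins, had no call in 6 tested probe sets. Sema6d averaged 2747 ± 227 at P21 and 3243 ± 157 at P1 without overlap (change -0.24, adjusted p = 0.0674, or 0.0373 with the replicate block). Sema6b and Sema6c had changes of -0.24 and -0.25. On centring and with quantile normalization, Sema6c (adjusted p = 0.0182 and 0.0184) and Sema6d (adjusted p = 0.0483 and 0.0284) were called lower. The 3 tested Sema6a probe sets had changes of 0.06, 0.18 and 0.36, the last with an adjusted p of 0.108, or 0.0183 with the replicate block. Their 95% intervals ran from -0.18 at the lowest to 0.72 at the highest.

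Sema5a, a semaphorin that can attract or repel according to the proteoglycans it meets, was measured by 3 tested probe sets that did not go the same way. Probe set 1376539_at read 603, 577, 430.3 and 548 on the P21 arrays, against 374, 313, 213 and 257 on the P1 arrays. It was higher on every P21 array, with a change of 0.88 ± 0.17 (adjusted p = 0.00311). Probe set 1390437_at read 1216, 747, 963 and 997 on the P21 arrays, against 1399.6, 1326, 1340.2 and 1358 on the P1 arrays. It was lower on every P21 array, with a change of -0.48 ± 0.14 (adjusted p = 0.0199). A further probe set, 1391556_at, had a change of -0.28 and was not called. The changes of 1390437_at and 1376539_at differed by -1.36, without overlap between the ages (two-sided exact permutation test, p = 0.0286, the smallest that 4 against 4 arrays allow, and 0.109 adjusted over 19 pairs of probe sets of the same gene). The direction of Sema5a is therefore not settled by these arrays. In 5 of the 19 pairs (26.3%) the ages did not overlap, close to the 27.5% of all pairs of tested probe sets of the same gene. Over all genes with at least 2 called probe sets, 66 of 614 (10.7%) had calls in opposite directions.

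**Figure D3:**
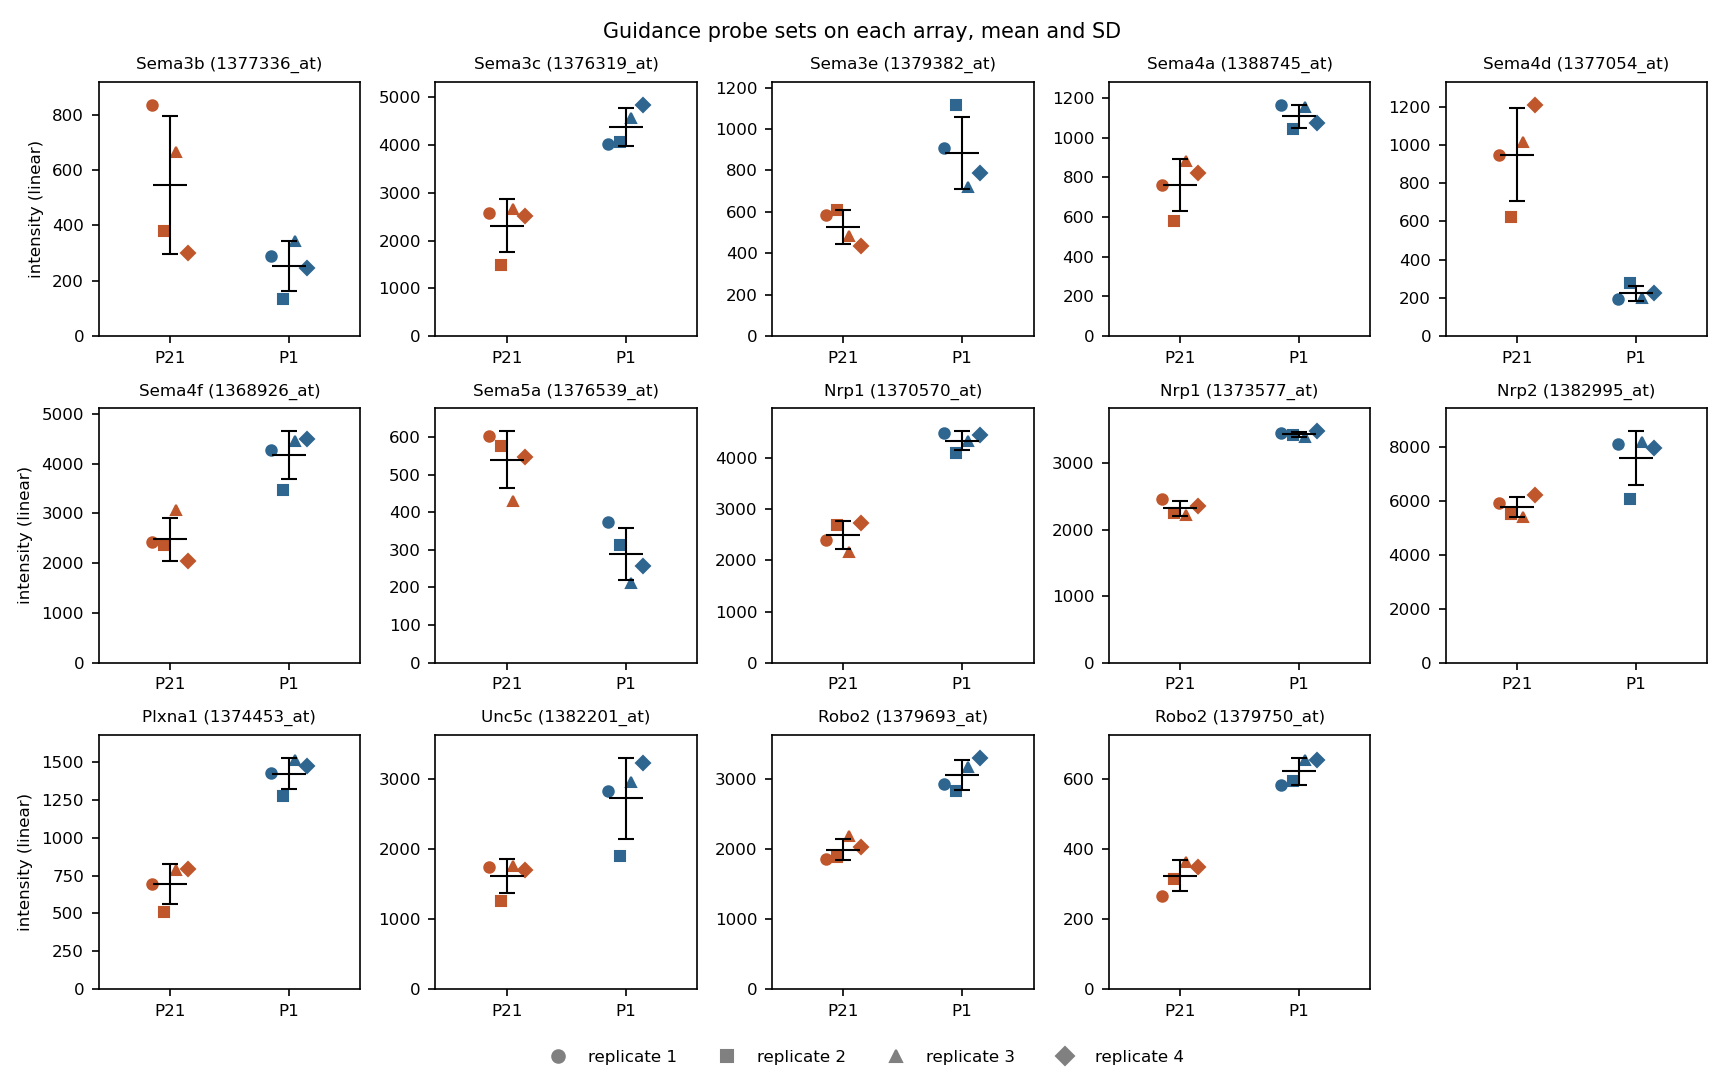
Linear intensity of each called guidance probe set with a change of at least 0.5, and of the bright Nrp2 probe set, on each of the 8 arrays, P21 left of P1; marker shapes give the replicate number, bars the mean and SD. In 12 of the 14 panels the ages do not overlap, the exceptions being Sema3b and Nrp2. Apart from Nrp2 the panels were chosen by call and size of change, which favours such separation. Over all 45 tested guidance probe sets the share without overlap is 42.2%, against 38.0% of all tested.

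Both neuropilins, the co-receptors through which class 3 semaphorins act, had calls toward lower values at P21. Nrp1, the binding partner of Sema3a, had a pair of tested probe sets. Probe set 1370570_at read 2396, 2701, 2162 and 2732 on the P21 arrays, against 4502, 4094, 4338 and 4449.7 on the P1 arrays, and the second, 1373577_at, read 2453, 2245, 2211 and 2357 on the P21 arrays, against 3455, 3414, 3393 and 3477 on the P1 arrays. In each, all P21 arrays lay under all P1 arrays. The changes were -0.80 ± 0.10 (adjusted p = 2.28e-04) and -0.57 ± 0.08 (adjusted p = 4.47e-04).

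Nrp2, which binds Sema3c and Sema3f, gave a less even picture. Its probe set 1382995_at, the only guidance probe set whose mean lay above the 90th percentile of those tested, read 5935, 5532, 5401 and 6241 on the P21 arrays, against 8125, 6097, 8189 and 7967 on the P1 arrays. P1 replicate 2 lay inside the P21 range. The change was -0.39 ± 0.12 (adjusted p = 0.0268), and the call was lost without P21 replicate 2 or 3, without P1 replicate 1, 3 or 4, and without the filter (adjusted p up to 0.0744). The other Nrp2 probe set, 1369824_at, spread from 541 to 1953 at P1 and was not called (change 0.39, 95% interval -0.44 to 1.23).

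Plexin A1, which forms a receptor with neuropilin-1, had the deepest fall of the tested guidance probe sets. Plxna1 read 694, 511, 787 and 795 on the P21 arrays, against 1430.5, 1275, 1513 and 1475 on the P1 arrays. All P21 intensities were at or below 795 and all P1 intensities at or above 1275, a change of -1.03 ± 0.14 (2.04-fold lower at P21, adjusted p = 4.17e-04). Its other 2 probe sets stayed under the filter level on all 8 arrays. Plxna4, the plexin that in mouse carries Sema3a and Sema6a signals, did not pass by either probe set, with changes of -0.13 (95% interval -0.34 to 0.07) and -0.00 (-0.26 to 0.25). The changes of Plxna1 and Plxna4 differed by -0.90 without overlap between the ages (exact permutation p = 0.0286, adjusted p = 0.0571 over 32 pairs of genes of the same family).

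Plxna3, which in mouse pairs with Nrp2, averaged 1344 ± 152 at P21 and 1755 ± 280.0 at P1 and missed the threshold (change -0.37, adjusted p = 0.0561, or 0.0224 with the replicate block). Plxna2, a receptor of Sema6a in mouse, was called both ways. Its probe set 1390274_at averaged 1034 ± 46.3 at P21 and 1284 ± 116 at P1 (change -0.31 ± 0.09, adjusted p = 0.0273), and 1392157_at averaged 379.7 ± 87.5 and 269 ± 14.6 (change 0.45 ± 0.14, adjusted p = 0.0331). A further probe set, 1384355_at, was not called (change -0.20). The fall was lost without P21 replicate 2, 3 or 4, without P1 replicate 2 and without the filter, and the rise under 9 alternatives, centring and quantile normalization among them. At P1 the rising probe set read close to the filter level, 253 to 284.

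Plexin B1, the receptor of Sema4d, was higher at P21 by 1 of 2 tested probe sets. Probe set 1374444_at read 755, 600.2, 696 and 643 on the P21 arrays, against 527, 498, 472 and 512 on the P1 arrays. The ages did not overlap (change 0.41 ± 0.10, adjusted p = 0.00857), and the call was lost on centring (adjusted p = 0.117). The other, 1378694_at, had a change of 0.57 ± 0.20 and an adjusted p of 0.0501, or 0.0191 with the replicate block. Plxnb2 did not pass (change 0.08).

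Plexin D1, the receptor of Sema3e, read 332, 403, 285 and 413 on the P21 arrays, against 264, 288, 225 and 252 on the P1 arrays. The lowest P21 intensity lay under the highest P1 intensity, and the change of 0.44 ± 0.13 (adjusted p = 0.0261) was lost on centring, without the filter, and without P21 replicate 2 or 4 or P1 replicate 3 or 4. Plxnd1 is also a receptor of vessels, and 4 of 6 tested vessel markers were called higher (summed intensity 4889 to 8755 at P21, against 4010.5 to 4940.4 at P1). The part of vessel cells in its rise, or in that of Unc5b, was not tested. Plxnc1 had changes of -0.28 and 0.29 by its 2 probe sets, and neither was called. The second was called higher with the replicate block (adjusted p = 0.0284) and without P1 replicate 1 (adjusted p = 0.0278). The first was called lower on centring (adjusted p = 0.0287) and with quantile normalization (adjusted p = 0.0187).

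**Figure D4:**
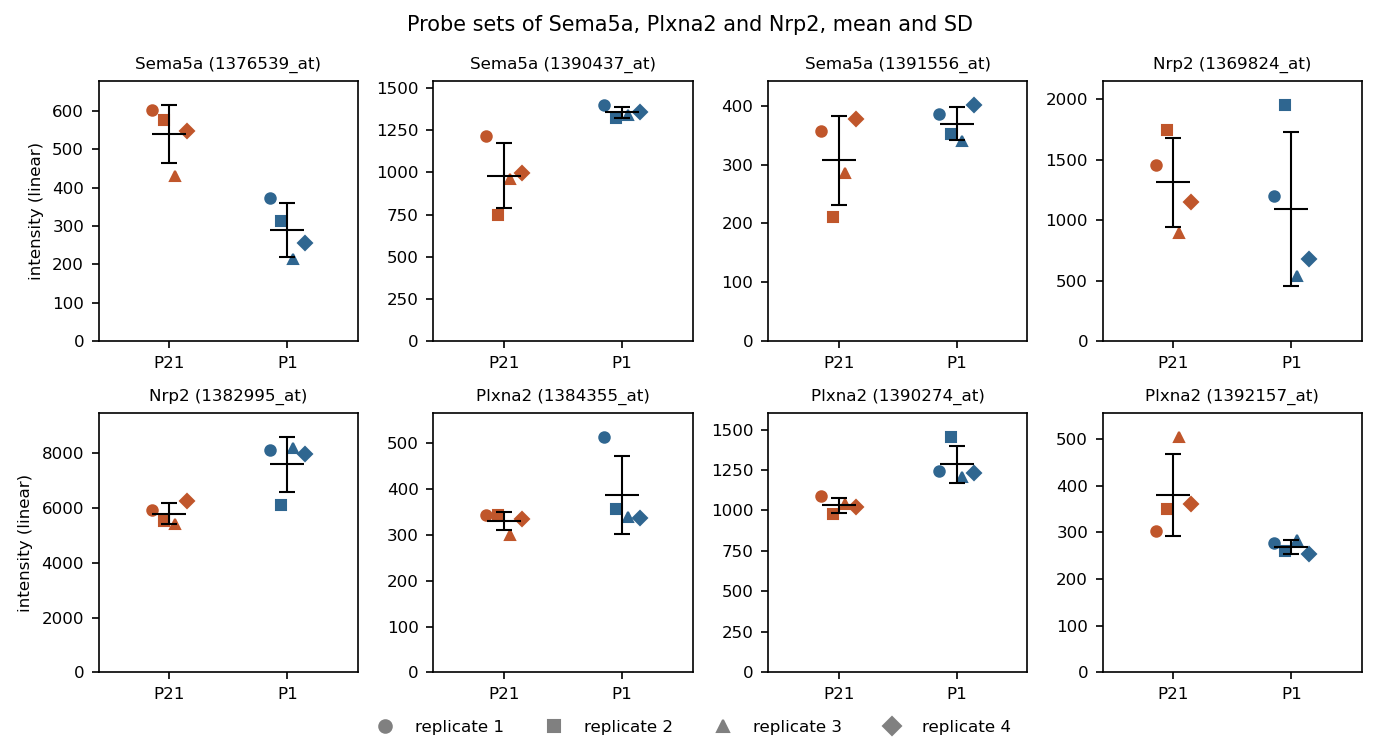
Linear intensity of the tested probe sets of Sema5a, Nrp2 and Plxna2 on each array, P21 left of P1; marker shapes give the replicate number, bars the mean and SD. Sema5a probe set 1376539_at is higher at P21 on every array while 1390437_at is lower, and Plxna2 probe sets 1392157_at and 1390274_at part in the same way.

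The 2 tested netrin receptors were called in opposite directions. Unc5c, through which netrin-1 repels axons, read 1750.2, 1259, 1761 and 1707 on the P21 arrays, against 2831, 1895, 2954 and 3224 on the P1 arrays. All P21 arrays lay under all P1 arrays, and replicate 2 was the lowest at each age (change -0.73 ± 0.18, adjusted p = 0.0100). Unc5b, a receptor of the same family that vessels also make, read 363, 309.6, 290.1 and 462 on the P21 arrays, against 261, 264, 215 and 251 on the P1 arrays. It was higher on every P21 array (change 0.48 ± 0.15, adjusted p = 0.0272). At P1, only replicate 4 of Unc5b lay above the filter level.

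The Unc5b call was lost on centring, with quantile normalization, without the filter, and without P21 replicate 1 or 4 or P1 replicate 3 or 4 (adjusted p up to 0.0830). The changes of Unc5b and Unc5c differed by 1.21 (exact permutation p = 0.0286, adjusted p = 0.0571). The size of that difference is uncertain, since Unc5b exceeded the filter level on only 1 P1 array. Ntng1, a membrane-anchored netrin-G, averaged 1272 ± 213 at P21 and 1143 ± 133 at P1 and did not pass (change 0.15). Netrin-1 itself, Ntn5, Dcc and Unc5a had no tested probe set. The 3 Ntn1 probe sets lay under the filter level on all 8 arrays, and Dcc read 108, 108, 119.6 and 85.3 on the P21 arrays, against 98.3, 120.3, 62.3 and 53.7 on the P1 arrays, also under it, so no change can be stated for either.

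Robo2, a receptor through which Slits repel axons, fell by 2 of 3 tested probe sets. Probe set 1379693_at read 1859, 1894, 2192 and 2035 on the P21 arrays, against 2929, 2834, 3173 and 3306 on the P1 arrays. Probe set 1379750_at read 265, 315, 364 and 349 on the P21 arrays, against 581, 593, 653 and 654 on the P1 arrays. Neither overlapped between the ages, with changes of -0.61 ± 0.10 (adjusted p = 7.81e-04) and -0.92 ± 0.11 (adjusted p = 2.02e-04). A further probe set, 1382632_at, had a change of -0.38 and an adjusted p of 0.0794, or 0.00683 with the replicate block. Robo1 and Robo3 had no tested probe set.

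Slit2, a ligand of Robo2, did not pass the test. Its probe set 1395986_at averaged 3056 ± 133 at P21 and 3665 ± 497 at P1, and 1382685_at averaged 1943 ± 187 and 2389 ± 211. Neither was called (changes -0.25 and -0.30, adjusted p = 0.103 and 0.0522), and both were called on centring (adjusted p = 0.0177 and 0.0158). Slit3 did not pass (change 0.19). Slit1 read 63.1, 48.1, 63.7 and 17.9 on the P21 arrays, against 190.0, 146, 177 and 178 on the P1 arrays, all under the filter level, so that its level was not measured at either age although the ages did not overlap.

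Altogether 25 of the 70 guidance probe sets did not pass the filter, and 19 of them exceeded it on no array, with intensities from -20.4 to 313 over all 25. Among their genes, Dcc, Ntn1, Ntn5, Robo1, Robo3, Sema3a, Sema3f, Sema3g, Slit1 and Unc5a had no other probe set that passed. The RNA was amplified from its poly(A) end, so a reading under the filter level does not show that a transcript was absent.

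Genes of the same family were compared by the within-array difference between them, each gene taken by its tested probe set of highest mean. That difference did not overlap between the ages in 16 of 32 pairs (50.0%), against 44.9% of all pairs of tested genes (exact permutation p = 0.0286 in each of the 16, adjusted p = 0.0571). Of the 16, 4 set Sema4d against another class 4 member and rest on P1 readings of Sema4d under the filter level, so no difference is given for them. The share over all genes was counted with pairs of this kind kept in. In the other 28 pairs the count was 12 (42.9%), close to that share. Among these were Plxna1 set against Plxna2, Plxna3 and Plxna4, and Nrp1 against Nrp2 (difference -0.41). Sema3c and Sema3e, which both fell, had a difference in change of -0.23 (exact permutation p = 0.543). No pair passed after adjustment, and 0.0571 was the smallest adjusted p reached.

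Partners of these receptors were taken from lists of textbook members. Of 24 tested co-receptors and other ligands, 12 were lower at P21, 1 was higher and 11 were not called, with a median change of -0.26; of all genes tested by 1 probe set each, 17.4% were lower and 22.0% higher, or 39.4% in either direction. Draxin, a secreted ligand of Dcc, read 99.0, 103, 67.7 and 118 on the P21 arrays, against 583, 664, 722 and 853 on the P1 arrays. Every P21 intensity lay under the filter level, so it was at least 2.46-fold lower (fitted change -2.68 ± 0.16, adjusted p = 3.24e-06). Islr2, a membrane protein that in mouse guides motor and sensory axons, read 394, 470.4, 424 and 314 on the P21 arrays, against 1877, 1330.4, 1683 and 1663 on the P1 arrays (change -1.99 ± 0.15, adjusted p = 7.96e-06).

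The repulsive cue Rgma fell by 1.56 ± 0.13, its relative Rgmb by 0.75 ± 0.11, and Neo1, the neogenin receptor of both and of netrins, by 0.59 ± 0.15. The cell adhesion genes Chl1 (change -0.92) and L1cam (-0.39), partners of the neuropilins, also fell, as did Nell2 (-0.51), a ligand of Robo3. Gpc1, a proteoglycan that binds Slits, was the member that rose, with 6167 ± 40.5 at P21 and 4389.6 ± 174 at P1 (change 0.49 ± 0.08, adjusted p = 9.44e-04). Those beyond Draxin and Islr2 were picked for mention with their values known.

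The intracellular effectors were more divided, with 12 of 41 tested lower, 9 higher and 20 not called (median change -0.01). Of all genes tested by 1 probe set each, 17.4% were lower and 22.0% higher. The effectors thus rose about as often as genes in general, and a larger share of them fell, a difference that was not tested. Farp1, an exchange factor bound by A-type plexins, read 602, 713, 848 and 502 on the P21 arrays, against 2788, 2222, 2828 and 2837 on the P1 arrays (change -1.99 ± 0.16, adjusted p = 1.48e-05), while its other tested probe set had a change of -0.21 and was not called. Mical2, of the oxidoreductases by which plexins take actin filaments apart, read 1030.3, 719, 799.8 and 1103 on the P21 arrays, against 306, 353, 349.8 and 329.8 on the P1 arrays (change 1.39 ± 0.14, adjusted p = 6.22e-05). Its other tested probe set had a change of 0.25 and was not called. None of these groups of 4 overlapped between the ages.

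Mical1 of that family rose by 0.67 ± 0.19 (adjusted p = 0.0217), with overlapping ages. That call was lost on centring, with quantile normalization, and without P21 replicate 3 or 4 or P1 replicate 1 (adjusted p up to 0.0779). Limk1, the kinase that inactivates cofilin, averaged 2797 ± 131 at P21 and 1849 ± 289.9 at P1 (change 0.61 ± 0.12, adjusted p = 0.00360), while its relative Limk2 fell (-0.78 ± 0.18). Srgap2, a GTPase-activating protein of the Slit-Robo pathway, fell by 1.16 ± 0.11. The GTPases Rac1 (-0.13), Rhoa (0.19) and Cdc42 (-0.17) did not pass. Limk2, Srgap2 and the GTPases were picked for mention with their values known. With arrays centred, 4 genes of both lists were higher and 26 lower, against 10 and 24 as deposited. Centring moved all tested probe sets the same way, from 20.8% to 13.7% higher and from 17.4% to 21.8% lower.

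**Figure D5:**
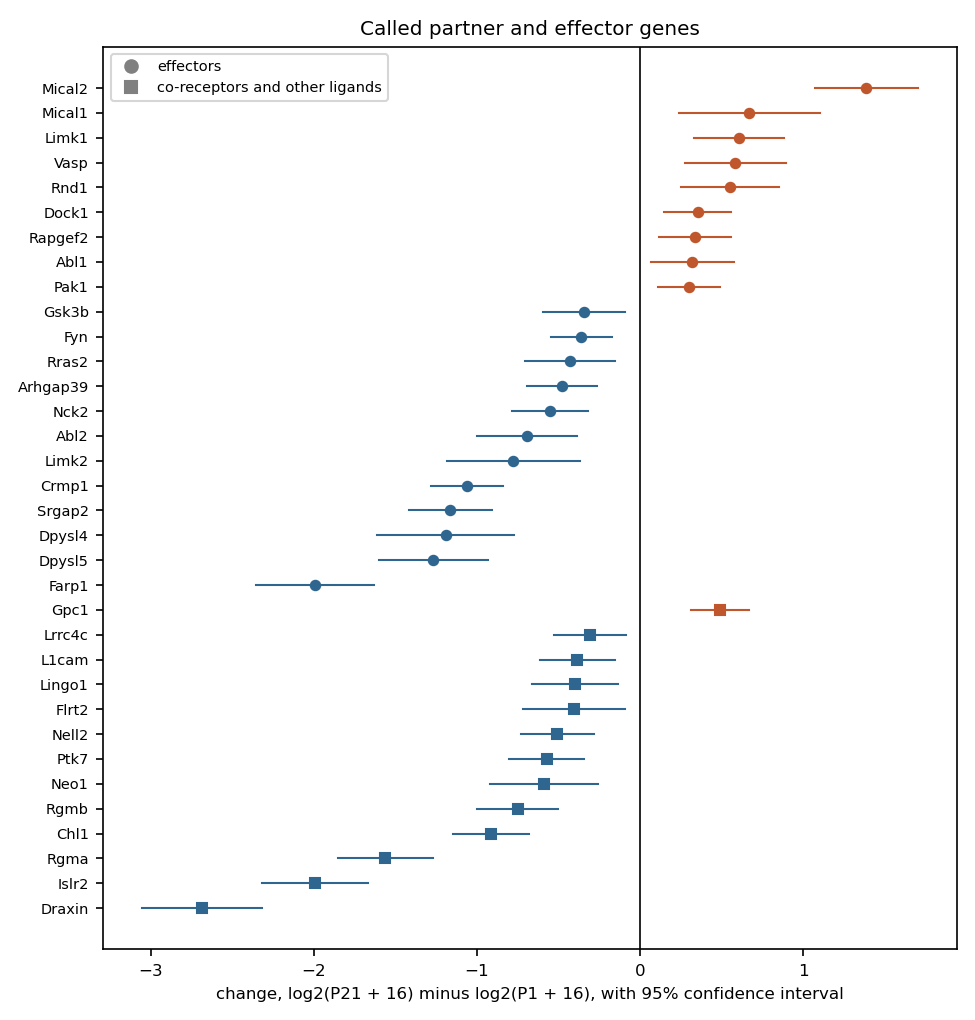
Change at P21 against P1 of the 34 called partner and effector genes, as log2(P21 + 16) minus log2(P1 + 16) with 95% confidence intervals; squares are co-receptors and other ligands, circles effectors. The Draxin point is a fitted value, since its P21 intensities lay under the filter level. The other falls (blue) run down to -1.99 for Farp1 and rises (orange) up to 1.39 for Mical2, and 1 of the 13 squares is a rise.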

How the data were processed

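Intensities on a linear scale were deposited by the authors as 1 table of 31042 probe sets by 8 arrays; the background correction, summary and normalization behind them are not given in the sources used here. Array medians ran from 399.6 to 416 at P21 and from 323 to 408 at P1. Per the labels' protocols, RNA of about 50 ng per pool passed 2 rounds of amplification from the poly(A) end before hybridization to a RAE230 2.0 array. Values below 0 were set to 0, 16 was added and log2 taken. Probe sets above the 40th percentile of their array on at least 4 arrays (19155) were fitted with limma 3.58.1 in R 4.3.3, P21 minus P1, with no covariate. The fit was tested on simulated data of 19155 probe sets with 200 changed, where it recovered 92% of log2 changes of 1 and 98% of changes of 2. The simulated noise was normal and independent between arrays, and far fewer probe sets changed than the 38.3% called here. These rates therefore check the fit and need not hold for these arrays. Symbols came from the platform annotation; 20826 probe sets had 1 symbol, 436 several and 9780 none. Deviations of same-numbered arrays of both ages had correlations of 0.514, 0.321, 0.558 and 0.15. The highest correlation between arrays of different numbers was 0.366, above those of numbers 2 and 4. A pairing by number is therefore uncertain, and the replicate number was used as a block only as an alternative. Exact permutation tests (scipy 1.17.1) were two-sided. Named probe sets were the called ones with a change of at least 0.5 or a mean above the 90th percentile, genes called in both directions, and the 3 largest rises and falls among called partners and effectors. Alternatives were other pseudocounts, filters, scalings, an intensity trend, the block and leaving out each array. Members and gene lists were chosen with earlier results of these data known. Arrays were labelled as biological replicates, and their number limits the precision.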

Additional observations from a re-analysis of the deposited data

Results flagged for a closer look

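In 6 of 90 groups of 4 arrays, 1 array lay far from the other 3 for its group's range, by Dixon's ratio; chance alone gives about 1 in 20. P21 replicate 2 was the lowest for Sema3c (1478, others 2514 to 2656), Unc5c (1259, others 1707 to 1761) and Sema6a probe set 1382868_at (1797, others 2117 to 2171). P1 replicate 2 was the lowest for Nrp2 probe set 1382995_at (6097, others 7967 to 8189) and the highest for Plxna2 probe set 1390274_at (1456, others 1208 to 1244). P1 replicate 1 was the highest for Plxna2 probe set 1384355_at (514, others 336 to 357).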

How the results depend on the processing

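No called guidance probe set or named partner changed sign under the alternatives run. Among those not called, Sema6a 1382868_at (-0.08), Plxna3 1377077_at (-0.01) and Plxnb2 (-0.05) were below 0 on centring, and Plxna4 1397668_at lay above 0 without P21 replicate 2 or 3 or P1 replicate 1. The median of all tested probe sets also turned on centring (0.07 as deposited and -0.07 centred). Of the 20 called guidance probe sets, 11 kept their call under all 16 alternatives; Robo2 1379750_at and Sema5a 1376539_at kept it under the 15 in which they were tested, not passing a filter at the 60th percentile. The 7 guidance rises became 3 without the filter, 2 with a filter at the 60th percentile, 2 with arrays centred on their medians and 4 with quantile normalization, and 3 to 7 on leaving out 1 array; they were 4 without P21 replicate 4 or P1 replicate 3 and 3 without P1 replicate 4. The 13 guidance falls became 21 on centring. Centring also gave 2631 rises over all probe sets, against 3990 as deposited, and 4 rises among partners and effectors, against 10. Those 10 ranged from 6 (without P1 replicate 1) to 12 on leaving out 1 array. The 5 pairs of probe sets of the same gene that did not overlap ranged from 5 to 9 (9 without P1 replicate 2), an alternative chosen after seeing the data. With the replicate block, 8805 probe sets were called (4862 higher and 3943 lower), 27 of them guidance probe sets (10 higher and 17 lower), and 36 partner and effector genes; none of the 20 guidance calls was lost with it. Readings near or under the filter level on some arrays limit Unc5b, Plxnd1, Sema3b, Sema4d, Plxna2 1392157_at, Sema5a 1376539_at and Robo2 1379750_at. The authors' scaling is unknown, so the split between rises and falls is known only relative to it.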
